A study of Mus musculus with 16 samples.

Results

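The abundance of 35 cell cycle and DNA replication genes was examined in brown adipose tissue (BAT) of 16 mice with or without *Gdf15* in their thermogenic adipocytes. The 35 genes were a fixed list of cyclins, their kinases and inhibitors, the retinoblastoma gene and an E2F gene, the MCM helicase, enzymes of DNA replication and nucleotide supply, and genes of mitosis, and they were found by symbol among 49119 gene symbols. Mice were C57BL6/J, 18 weeks old and had received high-fat diet (HFD) for 12 weeks. Each genotype (WT or KO) was represented by 4 libraries of males and 4 of females. Both genotypes carried floxed *Gdf15* alleles, and KO mice (GDF15 BKO) carried in addition a Cre recombinase under the *Ucp1* promoter, so that the deletion takes place in *Ucp1*-expressing cells and other cells of the tissue keep the gene. RNA of whole tissue was sequenced, and the values are TPM, or transcripts per 1000000, which take transcript length into account and give every library the same total.

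Cyclins activate cyclin-dependent kinases (CDKs), which drive a cell from growth into DNA synthesis and on to division. D-type cyclins with CDK4 or CDK6 phosphorylate the retinoblastoma protein, which frees E2F factors to switch on genes for DNA replication, and CDK inhibitors oppose this step. Mature adipocytes rarely divide, whereas progenitors, endothelial cells and macrophages of the tissue can do so, and genes of mitosis are transcribed mainly in dividing cells.

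Promoters of replication genes are known for E2F sites, and those of mitotic genes for CHR elements next to CCAAT boxes. Of the 35 genes, 27 had 31 promoter windows in RefSeq (GRCm38.p6), each from 250 bases before to 50 bases after a start. The search covered both strands for E2F letters (TTTCGCGC, TTTGGCGC, TTTCCCGC or TTTGCCGC), for CHR letters (TTTGAA or TTCGAA) and for CCAAT, and letters of different motifs or of both strands may overlap. E2F letters were in 6 windows (19.4%) against 2.26% of 32851 windows of all genes, CHR letters in 8 (25.8%) against 19.2%, and CCAAT in 20 (64.5%) against 37.4%. The E2F letters were in windows of *Cdk1*, *Cdk2*, *Mcm3*, *Mcm5*, *Mcm6* and *Mcm7*, and the CHR letters in windows of *Ccnb2*, *Cdk1*, *Cenpa*, *Mcm2*, *Mcm7*, *Mki67*, *Top2a* and *Ube2c*. A match is a description of letters and not a binding site. The 250 bases upstream of *Top2a*, *Cdk1*, *Ube2c*, *Mcm5* and *Mcm6* are shown because these 5 genes had the largest male differences among expressed members with E2F or CHR letters, with the matched letters in capitals.
Top2a (chr11:99024190-99024439, minus strand): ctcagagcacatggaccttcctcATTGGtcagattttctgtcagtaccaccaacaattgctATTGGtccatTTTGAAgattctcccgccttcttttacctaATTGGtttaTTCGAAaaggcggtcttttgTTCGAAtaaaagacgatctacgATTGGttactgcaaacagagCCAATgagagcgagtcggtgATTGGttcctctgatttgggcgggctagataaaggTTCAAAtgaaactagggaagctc
Cdk1 (chr10:69352913-69353162, minus strand): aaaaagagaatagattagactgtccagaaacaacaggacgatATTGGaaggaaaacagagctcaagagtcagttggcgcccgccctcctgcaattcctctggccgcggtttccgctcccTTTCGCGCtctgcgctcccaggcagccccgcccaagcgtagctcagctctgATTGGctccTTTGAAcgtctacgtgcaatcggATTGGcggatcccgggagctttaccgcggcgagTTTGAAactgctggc
Ube2c (chr2:164769679-164769928, plus strand): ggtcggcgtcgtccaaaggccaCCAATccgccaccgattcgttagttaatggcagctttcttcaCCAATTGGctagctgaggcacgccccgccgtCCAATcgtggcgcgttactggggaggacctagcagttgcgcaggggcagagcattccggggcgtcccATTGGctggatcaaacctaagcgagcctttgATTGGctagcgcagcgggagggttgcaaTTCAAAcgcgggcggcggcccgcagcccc
Mcm5 (chr8:75109259-75109508, plus strand): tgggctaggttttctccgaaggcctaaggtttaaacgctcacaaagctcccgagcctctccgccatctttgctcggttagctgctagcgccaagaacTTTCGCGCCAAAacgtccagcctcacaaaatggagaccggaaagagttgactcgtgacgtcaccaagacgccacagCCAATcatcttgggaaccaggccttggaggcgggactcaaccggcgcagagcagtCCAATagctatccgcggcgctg
Mcm6 (chr1:128359706-128359955, minus strand): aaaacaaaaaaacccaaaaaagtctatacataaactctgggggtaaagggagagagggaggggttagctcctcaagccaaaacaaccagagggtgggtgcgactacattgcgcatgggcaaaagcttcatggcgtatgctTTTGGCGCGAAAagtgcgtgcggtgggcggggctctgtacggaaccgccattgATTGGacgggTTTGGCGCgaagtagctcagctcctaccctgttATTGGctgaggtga
The *Top2a* sequence held 4 CHR and 6 CCAAT matches and no E2F letters, and the *Ube2c* sequence 1 and 6. In *Cdk1*, 1 E2F match began 131 bases before the start and 2 CHR matches began 71 and 15 bases before it. The *Mcm5* sequence held 2 overlapping E2F matches and the *Mcm6* sequence 3, and neither held CHR letters.

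Most members were present at low levels. Over the 16 libraries, 25 of the 35 genes had a mean of at least 1 TPM, which is the minimum used here for a gene to count as expressed. Of these, 7 were at 10 TPM or more and 18 between 1 and 10 TPM. Among the 18, *Mcm5*, *Cdk1*, *Top2a* and *Ube2c* reached the minimum only through male KO, with means of 0.632 to 0.945 TPM over the other libraries. The highest were the CDK inhibitor genes *Cdkn2c* (p18, 56.9 TPM) and *Cdkn1a* (p21, 44.5 TPM), followed by *Cdk4* (35.9 TPM), the D-type cyclin gene *Ccnd3* (28.8 TPM), *Rb1* (19.3 TPM), *Cdkn1c* (p57, 18.01 TPM) and *Pcna*, the replication clamp (17.5 TPM). The 10 genes under 1 TPM were *Ccne1* and *Ccne2* (E-type cyclins), *E2f1*, *Rrm2*, *Ccna2*, *Ccnb1*, *Ccnb2*, *Birc5*, *Aurkb* and *Mki67*, and *Mki67*, the gene of the proliferation antigen Ki-67, was the lowest of all with 0.369 TPM. Genes under 1 TPM thus included G1 cyclins as well as genes of the S to M phases. *Cenpa* of the mitosis group, with 7.43 TPM, lay above *Ccnd1* (5.62 TPM) over all transcripts. Protein-coding transcripts gave only 8.14% of the TPM of *Cenpa* but 95.5% of that of *Ccnd1*. In whole tissue, fewer cells of a type and less RNA per cell cannot be told apart.

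**Figure D1:**
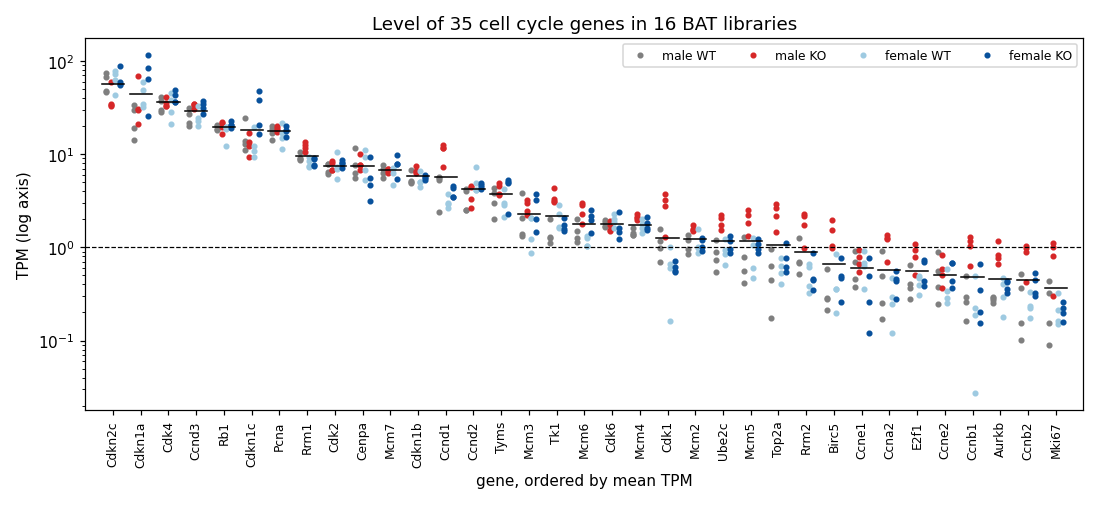
TPM of the 35 genes (log axis) in each of the 16 libraries, coloured by group, ordered by the 16-library mean (black bar), with the 1 TPM minimum as a dashed line. *Cdkn2c* (56.9 TPM) stands at the left end and *Mki67* (0.369 TPM) at the right end, and 10 genes lie below the line.

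*Gdf15* itself had 0.368, 0.690, 1.55 and 3.81 TPM in male WT and 0.0915, 0.0801, 0.255 and 0.272 TPM in male KO libraries, so no KO library reached a WT library. In females it was lower, with 0.0622 to 0.311 TPM in WT, while 3 KO libraries listed it at 0 and 1 at 0.0794 TPM. Mitochondrially encoded transcripts made up between 34.5 and 59.8% of a library's TPM. In female WT 4, 1 transcript took 16.5% and only 82.32% of the TPM could be assigned to gene symbols. Library names begin with a prefix whose meaning is not stated: 5, 5, 9 and 9 in male WT, 10, 9, 9 and 9 in male KO, 10, 8b, 8b and 8b in female WT and 10, 5, 8b and 9 in female KO. Prefix and genotype therefore cannot be fully told apart, and male WT and female WT libraries shared no prefix.

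To ask whether loss of adipocyte *Gdf15* goes with a change of these genes in males, male KO and male WT were compared. Differences are KO minus WT on the log2(TPM + 0.5) scale, which understates changes of genes at low TPM. Of the 26 members that reached a mean of 1 TPM in the male libraries, 0 passed an adjusted p of 0.05 (limma with Benjamini-Hochberg adjustment over all genes, lowest adjusted p = 0.123 for *Tk1*), beside 0.00821% of the 12179 genes tested. At an unadjusted p under 0.05, 13 of the 26 were higher in KO and 1 was lower, beside 17.7% and 1.07% of all genes. The median difference was 0.37 for the members and 0.16 for all genes. *Mcm5*, *Rrm2*, *Top2a* and *Ube2c* had a WT mean under 1 TPM and reached the minimum only through the KO libraries. With no TPM minimum all 35 were tested, and 20 were higher and 1 lower, beside 9.79% of 29256 genes higher. Without that minimum too, 0 members passed the adjusted threshold.

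In 8 of the 26 members every KO library was above every WT library, beside 9.54% of all genes tested. Over all 35 this held for 11: *Ccnd1*, *Mcm2*, *Mcm4*, *Mcm5*, *Tk1*, *Rrm1*, *Ccnb1*, *Top2a*, *Birc5*, *Aurkb* and *Ube2c*. Of these, *Ccnb1*, *Birc5* and *Aurkb* were under the minimum, and *Mcm5*, *Top2a* and *Ube2c* reached it only through KO. No share of all genes without the minimum was computed for this count. In no member were all KO libraries below all WT libraries.

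Among the G1 cyclins and kinases, *Ccnd1*, which encodes cyclin D1, had 2.37, 5.50, 5.65 and 5.32 TPM in male WT and 7.33, 12.5, 11.7 and 11.7 TPM in male KO libraries. All KO libraries lay above all WT libraries, and the means differed 2.3 times. The log2 difference was 1.16 (standard error 0.27, limma adjusted p = 0.163). *Ccnd3*, the most abundant D-type cyclin gene, had 19.8, 31.0, 21.3 and 27.0 TPM in WT and 30.6, 34.5, 33.3 and 34.4 TPM in KO, a difference of 0.44 with overlapping groups (standard error 0.15, limma adjusted p = 0.212). *Cdk4*, the most abundant gene of this group over all transcripts, had 28.4, 41.2, 29.96 and 36.9 TPM in WT and 32.9, 40.9, 32.9 and 35.6 TPM in KO, with overlap. Counting protein-coding transcripts only, the male means of *Cdk4* were 13.6 TPM in WT and 14.2 TPM in KO, below the 24.1 and 32.5 TPM of *Ccnd3*. *Ccnd2* (0.14), *Cdk4* (0.07), *Cdk6* (-0.08) and *Cdk2* (0.08) had unadjusted p of 0.496 or more. As a share of D-type cyclin TPM, *Ccnd1* made up 9.62 to 19.2% in male WT and 18.1 to 24.9% in male KO libraries, *Ccnd3* 72.4 to 80.1% and 67.3 to 75.5%, and *Ccnd2* the rest. *Ccne1* and *Ccne2* had 0.244 to 0.931 TPM in the male libraries, with overlapping groups.

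The 4 CDK inhibitor genes did not move together. *Cdkn2c*, whose product inhibits CDK4 and CDK6, was the member that was lower at an unadjusted p under 0.05. It had 67.2, 74.1, 46.7 and 48.0 TPM in male WT and 59.6, 34.8, 33.0 and 33.3 TPM in male KO, and only KO 1 reached the WT range (difference -0.57, standard error 0.23, limma adjusted p = 0.244). *Cdkn1b* (p27) had 5.08, 5.08, 4.92 and 6.71 TPM in WT and 6.62, 6.22, 7.51 and 6.49 TPM in KO, a difference of 0.28 (standard error 0.12, limma adjusted p = 0.246). *Cdkn1a*, a target of p53, had 14.1 to 33.4 TPM in WT and 21.1 to 69.1 TPM in KO, and the top value was that of KO 1. Its difference was 0.57 with a standard error of 0.38, and that of *Cdkn1c* was -0.21 with a standard error of 0.25.

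*Rb1*, the brake on E2F factors, had 18.1, 18.7, 19.9 and 20.6 TPM in male WT and 19.3, 21.3, 16.4 and 22.1 TPM in male KO libraries (difference 0.02, standard error 0.11). *E2f1* was under the minimum, with 0.279 to 0.647 TPM in WT and 0.507 to 1.10 TPM in KO.

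The 6 MCM genes encode the ring that unwinds DNA at the replication fork, and all 6 had positive differences, as did 9726 of all 12179 genes. Of the 6, 4 were higher at an unadjusted p under 0.05, beside 17.7% of all genes, and *Mcm5* among them reached the minimum only through KO. *Mcm5* had 0.416, 1.28, 0.785 and 0.561 TPM in male WT and 1.31, 2.25, 2.53 and 1.83 TPM in male KO, so the lowest KO value lay just above the highest WT value. The difference was 0.996 (standard error 0.25, limma adjusted p = 0.173). *Mcm4* had 1.44, 1.62, 1.35 and 1.34 TPM in WT and 2.11, 2.30, 2.05 and 1.95 TPM in KO, with no overlap and little spread in either group (difference 0.43, standard error 0.12, limma adjusted p = 0.187). *Mcm2* went from 0.857, 1.19, 0.964 and 1.35 TPM in WT to 1.49, 1.58, 1.53 and 1.75 TPM in KO, again without overlap (difference 0.40, limma adjusted p = 0.235). *Mcm6* had 1.25, 2.01, 1.48 and 1.13 TPM in WT and 1.80, 2.87, 2.27 and 3.01 TPM in KO, where KO 1 lay below WT 2 (difference 0.60, limma adjusted p = 0.205). *Mcm3* had 1.34, 3.84, 1.38 and 2.08 TPM in WT and 2.44, 3.23, 2.98 and 2.22 TPM in KO, with WT 2 the highest of all 8. *Mcm3* (0.36) and *Mcm7* (0.03) had unadjusted p of 0.222 and 0.774. *Mcm7* was the most abundant of the 6, with 6.32, 7.65, 5.56 and 6.91 TPM in WT and 6.66, 6.28, 6.998 and 6.98 TPM in KO, which overlapped. It gave 43.5 to 54.4% of the MCM TPM in male WT and 34.0 to 42.1% in male KO libraries, while *Mcm5* gave 3.58 to 7.29% and 8.31 to 13.8%. Summed, the 6 genes had 11.5 to 17.6 TPM in WT and 15.8 to 18.5 TPM in KO.

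Of the genes for the clamp and for nucleotide supply, *Tk1* had the largest difference. *Tk1* encodes thymidine kinase 1 of the salvage pathway and had 1.29, 1.995, 1.27 and 1.11 TPM in male WT and 3.12, 3.29, 3.09 and 4.31 TPM in male KO. The groups were well apart, and the difference was 1.05 (standard error 0.17, limma adjusted p = 0.123). *Rrm1*, the large subunit of ribonucleotide reductase, had 9.09, 8.56, 8.83 and 10.4 TPM in WT and 10.6, 13.6, 11.8 and 12.4 TPM in KO, also without overlap (difference 0.37, limma adjusted p = 0.185). The small subunit *Rrm2* had 0.704, 1.27, 0.681 and 0.516 TPM in WT and 0.983, 2.18, 2.25 and 1.73 TPM in KO, where KO 1 lay below WT 2 (difference 0.81, limma adjusted p = 0.203). Both subunits were thus higher in KO at an unadjusted p under 0.05. *Tyms*, thymidylate synthase, had 2.01, 3.79, 4.28 and 2.98 TPM in WT and 3.67, 3.69, 4.58 and 4.93 TPM in KO (difference 0.36, standard error 0.20). *Pcna*, the most abundant gene of this group, had 13.99, 18.8, 16.7 and 20 TPM in WT and 17.2, 18.2, 19.3 and 20.04 TPM in KO, a difference of 0.11 (standard error 0.12) with overlapping groups.

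The cyclins and kinase of the S to M phases were low in WT. *Cdk1*, the mitotic kinase, had 1.16, 1.58, 0.974 and 0.688 TPM in male WT and 1.28, 2.78, 3.23 and 3.72 TPM in male KO, so 3 KO libraries lay above all WT libraries and KO 1 among them (difference 0.98, standard error 0.29, limma adjusted p = 0.198). Its partners *Ccna2*, *Ccnb1* and *Ccnb2* were under the minimum. *Ccnb1*, cyclin B1, had 0.161 to 0.493 TPM in WT and 0.636 to 1.29 TPM in KO. *Ccna2* had 0.168 to 0.903 and 0.703 to 1.35 TPM, and *Ccnb2* 0.1003 to 0.518 and 0.423 to 1.04 TPM. The summed TPM of these 4 genes was 1.54 to 3.08 in WT, 3.04 in KO 1 and 6.08 to 7.24 in the other 3 KO libraries.

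Of the genes of mitosis and chromosomes, *Top2a*, which encodes the topoisomerase that separates sister DNA molecules, had 0.176, 0.951, 0.444 and 0.625 TPM in male WT and 1.47, 2.92, 2.64 and 2.17 TPM in male KO. All KO libraries were above all WT libraries and the means differed 4.19 times. The log2 difference was 1.44 (standard error 0.27, limma adjusted p = 0.136). *Ube2c*, a ubiquitin-conjugating enzyme of the anaphase-promoting complex, had 0.738, 1.21, 0.543 and 0.882 TPM in WT and 1.53, 1.75, 2.06 and 2.21 TPM in KO, also apart (difference 0.85, standard error 0.19, limma adjusted p = 0.163). *Birc5*, survivin, had 0.212 to 0.590 TPM in WT and 0.990 to 1.95 TPM in KO, and *Aurkb*, the Aurora B kinase, 0.250 to 0.292 and 0.664 to 1.16 TPM, each without overlap. *Mki67* had 0.0901, 0.434, 0.156 and 0.323 TPM in WT and 0.300, 0.798, 1.001 and 1.12 TPM in KO, so 3 KO libraries were above every WT library and KO 1 was not. *Cenpa*, the centromere histone, was the most abundant gene of this group over all transcripts and had 7.57, 11.7, 5.57 and 6.25 TPM in WT and 7.71, 10.04, 7.73 and 6.83 TPM in KO, with overlap (difference 0.09, standard error 0.22).

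**Figure D2:**
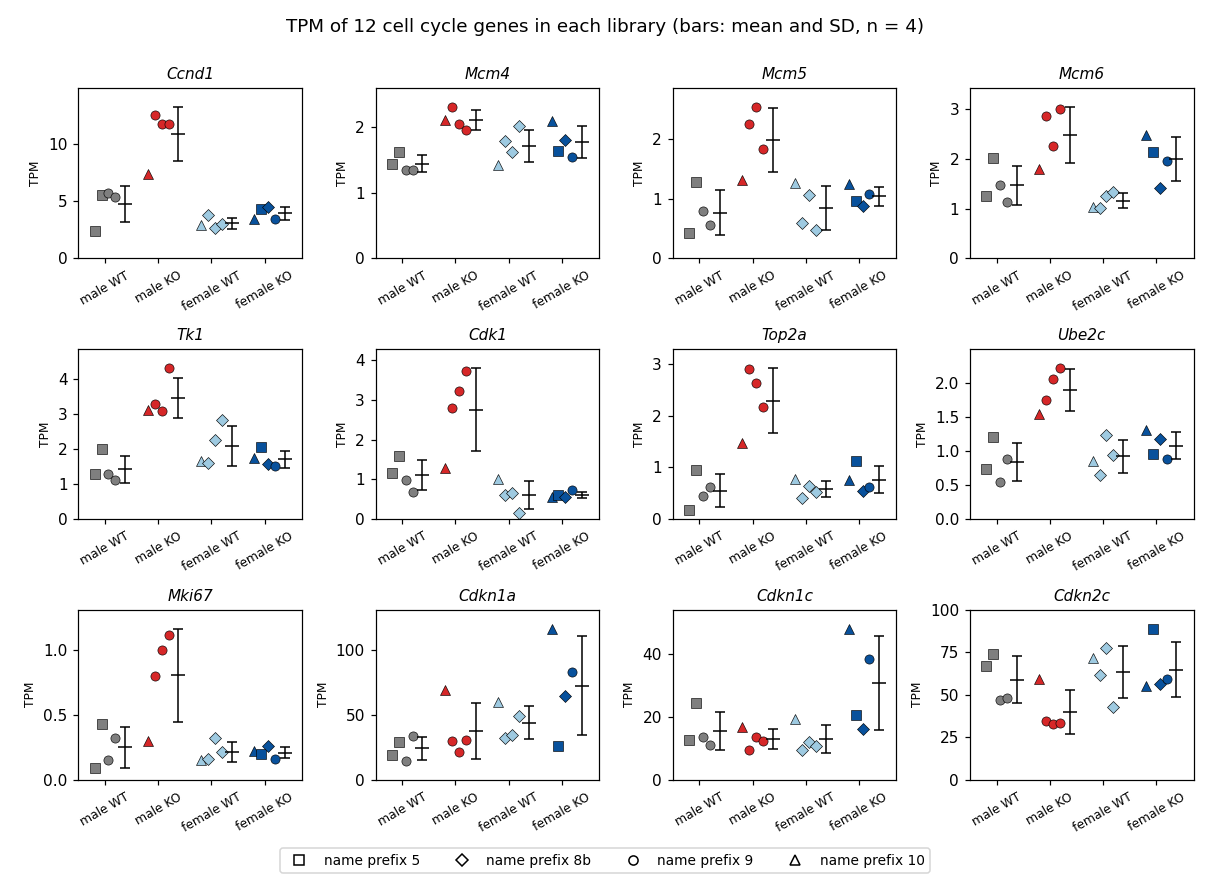
TPM of 12 genes in each library (linear axis from 0), by group, with the marker shape for the prefix of the library name and bars for mean and SD of 4 libraries. *Ccnd1*, *Mcm4*, *Mcm5*, *Tk1*, *Top2a* and *Ube2c* show all 4 male KO libraries above all male WT libraries, and KO 1 (triangle) is the lowest of the male KO points for *Ccnd1*, *Top2a*, *Cdk1* and *Mki67*.

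Male KO 1, the male library with prefix 10, lay below the other 3 male KO libraries in 24 of the 35 members, among them in 8 and above them in 3 (*Cdkn1a*, *Cdkn1c* and *Cdkn2c*). Only male libraries with prefix 9 were then compared (2 WT and 3 KO). Of the 28 members at 1 TPM or more in them, 24 were higher in KO, as were 9496 of 12166 genes. Over all 35 members, 30 were higher, and no share of all genes without a minimum was computed for this or the next count. In 21 of the 35 the 3 KO libraries were above both WT libraries. This separation held for 16 of the 28 members that reached 1 TPM in these libraries, beside 33% of 12166 genes. Of the 16, *Mcm5*, *Rrm2*, *Ccna2*, *Cdk1*, *Top2a*, *Birc5* and *Ube2c* were under 1 TPM in both WT libraries. They reached the minimum only through KO, which favours higher KO values in this count and in the fit that follows. In a limma fit of these 5 libraries *Ccnd1* passed the adjusted threshold, with a difference of 1.06, beside 0.074% of genes, and 13 of the 28 members were higher and 1 lower at an unadjusted p under 0.05, beside 15.3% and 1.04%. In these libraries *Cdk1* had a difference of 1.49, *Top2a* 1.57 and *Mki67*, which was under the minimum, 0.998 on the log2 scale. Scaling by median-of-ratios factors in all 8 male libraries moved the median difference of all genes from 0.161 to 0.00447, and then 11 members were higher and 1 lower at an unadjusted p under 0.05, beside 1008 and 876 genes of 12083.

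**Figure D3:**
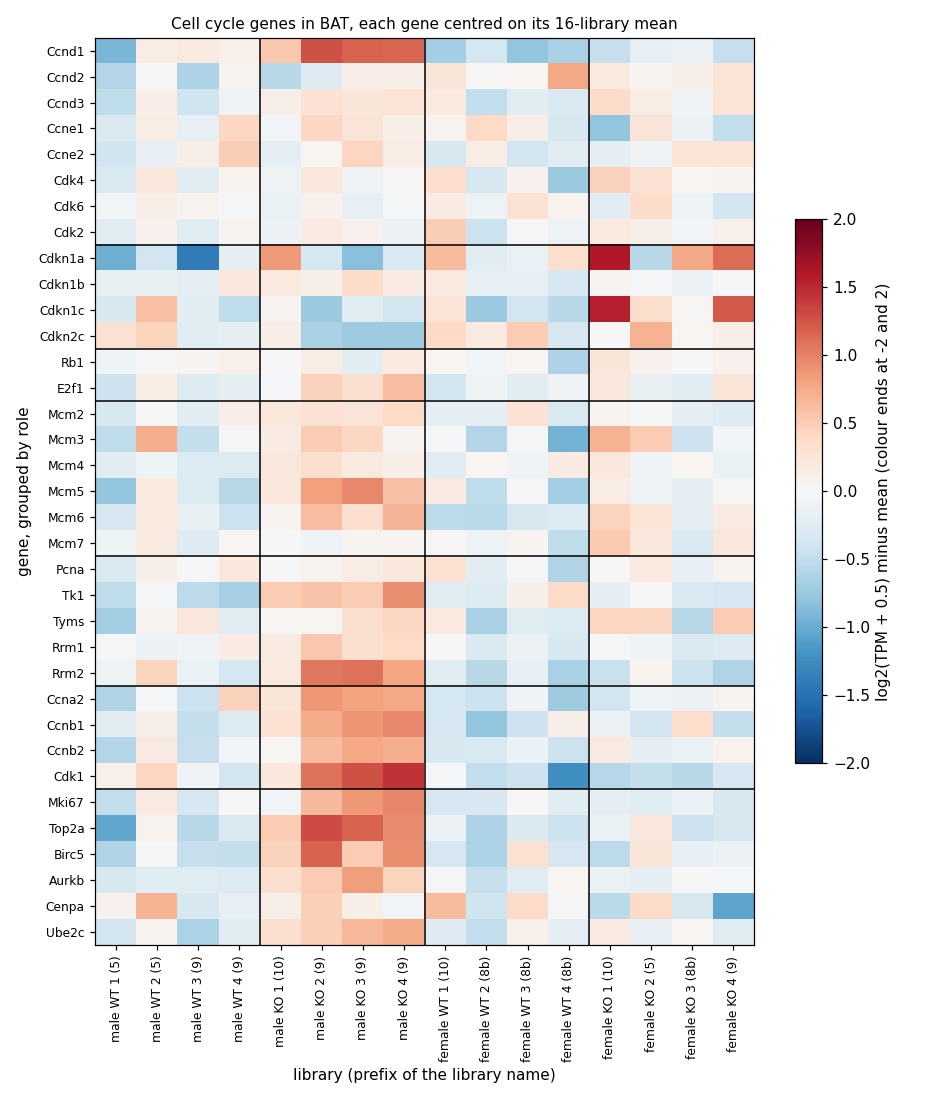
Each gene's log2(TPM + 0.5) minus its mean over the 16 libraries, with genes in rows grouped by role and libraries in columns with the prefix of the library name. Male KO 2, 3 and 4 are the columns with the highest values of *Cdk1*, *Top2a* and *Mki67*, and *Cdkn1a* is high in male KO 1 and in female KO 1, 3 and 4.

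The same comparison was made in females. Of the 21 members tested, 0 passed the adjusted threshold (limma, lowest adjusted p = 0.231), as did 0% of the 12143 genes tested. At an unadjusted p under 0.05, 2 members were higher in KO and 0 lower, beside 11.6% and 5.46% of all genes. The median difference was 0.16 for the members and 0.10 for all genes. *Mcm6* had 1.04, 1.02, 1.26 and 1.33 TPM in female WT and 2.49, 2.15, 1.43 and 1.97 TPM in female KO, and it was the member in which no KO library reached down to a WT library, a pattern seen in 4.9% of all genes. Its difference was 0.58 (standard error 0.19, limma adjusted p = 0.231). *Cdkn1c* had 19.4, 9.31, 12.1 and 10.7 TPM in WT and 48.0, 20.5, 16.2 and 38.2 TPM in KO. The KO mean was 2.39 times the WT mean, KO 3 lay below WT 1, and the difference was 1.15 (standard error 0.36, limma adjusted p = 0.231).

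In females the WT and KO ranges of the mitotic genes overlapped over all transcripts. *Top2a* had 0.409 to 0.774 TPM in female WT and 0.540 to 1.13 TPM in female KO, *Mki67* 0.152 to 0.321 and 0.160 to 0.261 TPM, and *Cdk1* 0.162 to 1.002 and 0.542 to 0.719 TPM. For *Ccnd1* the values were 2.63 to 3.74 and 3.42 to 4.50 TPM (difference 0.32, standard error 0.15). *Tk1* had 1.65, 1.61, 2.26 and 2.82 TPM in WT and 1.73, 2.04, 1.56 and 1.51 TPM in KO libraries (difference -0.21, standard error 0.19). *Cdkn1a* had 32.3 to 59.4 TPM in WT and 25.7, 64.6, 83.2 and 116.2 TPM in KO libraries. Across all 16 libraries, *Cdkn1a* spanned 14.1 to 116.2 TPM, the widest range among members above 10 TPM, and each of the 3 libraries with prefix 10 was the highest of its group (69.1 TPM in male KO, 59.4 TPM in female WT and 116.2 TPM in female KO).

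**Figure D4:**
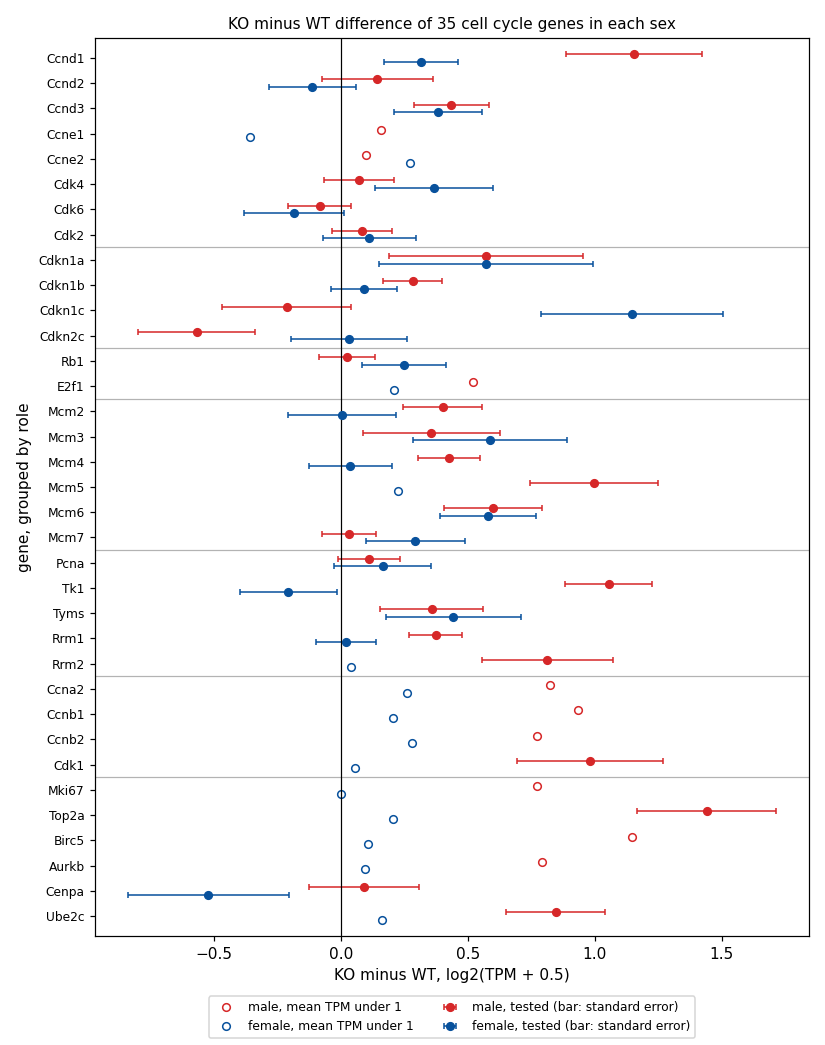
KO minus WT difference on the log2(TPM + 0.5) scale for each gene in males (red) and females (blue), with standard errors as bars for genes at 1 TPM or more and open circles without bars for genes below it. *Top2a* is farthest to the right in males (1.44) and *Cdkn1c* in females (1.15), and most male points from *Rrm2* to *Ube2c* lie between 0.77 and 1.44.

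The male difference minus the female difference, an interaction term fitted to all 16 libraries, asks whether the KO effect depends on sex. Of 25 members tested, 0 passed the adjusted threshold (limma, lowest adjusted p = 0.215), beside 0% of 12212 genes. At an unadjusted p under 0.05, 8 were more positive in males and 1 in females, beside 11.7% and 2.51% of all genes. Of the 8, *Mcm5*, *Cdk1*, *Top2a* and *Ube2c* reached the minimum only through male KO (means of 0.632 to 0.945 TPM over the other 12 libraries), which favours a positive value. With no minimum, 13 of 35 were more positive in males and 1 in females, beside 6.49% of 31798 genes positive. *Tk1* had the largest positive interaction of 1.26 (standard error 0.25, limma adjusted p = 0.215), followed by *Top2a* with 1.24 (standard error 0.36), *Cdk1* with 0.92 (0.41), *Ccnd1* with 0.84 (0.32), *Mcm5* with 0.77 (0.35) and *Ube2c* with 0.68 (0.27). *Mcm4* (0.39) and *Rrm1* (0.35) were the others on the male side. *Cdkn1c* was the member on the female side, with -1.36 (standard error 0.47, limma adjusted p = 0.24). For *Mcm6* the interaction was 0.02 with a standard error of 0.26. A dependence on sex was thus not established at the adjusted threshold for any member.

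The KO effect averaged over both sexes uses the same 16 libraries and therefore shares them with the comparisons above. Here 3 of the 25 members rose past the adjusted threshold, beside 2.95% of 12212 genes. *Top2a*, 1 of the 3, reached the minimum only through male KO (mean 2.30 TPM), since its mean over the other 12 libraries was 0.632 TPM, so the count is no support for the members as a group. *Ccnd1* rose by 0.74 (standard error 0.16, limma adjusted p = 0.0313), *Mcm6* by 0.59 (standard error 0.13, limma adjusted p = 0.0313) and *Top2a* by 0.82 (standard error 0.18, limma adjusted p = 0.0315). The difference of *Mcm6* was 0.60 in males and 0.58 in females, and that of *Top2a* was 1.44 and 0.20. At an unadjusted p under 0.05, 13 members were higher and 0 lower, beside 21.4% and 2.58% of all genes. Apart from those 3 they were *Ccnd3*, *Cdkn1b*, *Mcm3*, *Mcm4*, *Mcm5*, *Tk1*, *Tyms*, *Rrm1*, *Cdk1* and *Ube2c*. Like *Top2a*, the genes *Mcm5*, *Cdk1* and *Ube2c* reached the minimum only through male KO, which favours a positive value in this count. With the prefix as a covariate none of the 3 passed (*Ccnd1* 0.71, *Mcm6* 0.56 and *Top2a* 0.74, limma adjusted p = 0.132, 0.16 and 0.173), and over the alternatives other than leaving out single libraries the adjusted p ranged from 0.0216 to 0.132 for *Ccnd1*, 0.021 to 0.16 for *Mcm6* and 0.019 to 0.173 for *Top2a*. *Top2a* was under the minimum, and so has no value, with median-of-ratios scaling, with protein-coding transcripts only, with a minimum of 5 TPM and without male KO 2, 3 or 4. Leaving out male WT 3, male KO 2, 3 or 4, female WT 2 or female KO 1 or 4 left 0 members past the threshold, and leaving out male WT 2 gave 7. Without male WT 1 it was 1, and without female WT 1 or female KO 3 it was 5.

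Between WT mice of both sexes, 0 of 25 members passed (limma, lowest adjusted p = 0.959), beside 0.0655% of 12212 genes. At an unadjusted p under 0.05, 1 member was higher in males (*Ccnd1*, male minus female difference 0.50, standard error 0.23) and 2 were lower (*Ccnd2* -0.55, standard error 0.20, and *Tk1* -0.43, standard error 0.18), beside 3.09% and 1.56% of all genes. *Ccnd2* had 2.53, 4.06, 2.49 and 4.27 TPM in male WT and 4.91, 4.15, 4.17 and 7.28 TPM in female WT, where only male WT 4 reached the female range. *Cdk1* differed by 0.57 (standard error 0.29), and by -0.10 with the prefix as a covariate, and *Cdkn1a* by -0.89 (standard error 0.43), with overlapping groups. Male WT and female WT libraries shared no prefix, so sex and prefix cannot be told apart in this comparison. A value with the prefix as a covariate links these groups only through KO libraries.

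A wider list of 109 further cell cycle genes was counted beside the members, 108 of which were found and 61 expressed. In males 0 of 61 passed the adjusted threshold. At an unadjusted p under 0.05, 20 were higher and 0 lower, beside the 17.7% and 1.07% of all genes given above. Of the 20, 10 belonged to the 13 tested genes of mitosis. The 4 with the smallest p were *Cks2*, a CDK subunit (0.91), *Trp53*, which encodes p53 (0.61), *Uhrf1*, which maintains DNA methylation at replication (0.71), and the condensin gene *Ncapd2* (0.49). Genes that reach the minimum only through KO favour higher KO values, and their number among the 13 was not computed. With no minimum, 28 of 42 genes of mitosis were higher in male KO and 0 lower, beside 9.79% of 29256 genes higher. Under median-of-ratios scaling, 10 of the 61 were higher and 5 lower in males, beside 1008 and 876 of 12083 genes. In females 4 were higher and 1 lower of 57, beside 11.6% and 5.46% of all genes, and the 4 with the smallest p were *Tfdp2*, an E2F partner (-0.41), the polymerase genes *Pola2* (0.55) and *Pold2* (0.60) and the primase gene *Prim1* (0.50). In the interaction 10 of 61 were positive and 0 negative, beside 11.7% and 2.51%, led by *Uhrf1* (1.01), *Ncapd2* (0.67), *Tfdp1* (0.65) and *Cdc45* (0.55). Averaged over the sexes, 13 of 61 were higher and 1 lower at an unadjusted p under 0.05, beside 21.4% and 2.58%. The adjusted threshold was passed by 2 of the 61, beside 2.95% of all genes. *Trp53* rose by 0.44 (standard error 0.09, limma adjusted p = 0.0282) and *Tfdp2* fell by 0.32 on the log2 scale (standard error 0.07, limma adjusted p = 0.0313), and *Pola2* (0.41) and *Kif23*, a motor of cytokinesis (0.64), had the next smallest p. Between WT mice 2 were higher in males and 1 lower of 61, beside 3.09% and 1.56%.

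Part of the TPM of several members came from transcripts that the annotation does not class as protein-coding. Protein-coding transcripts gave 100% of the TPM of *Mki67*, *Ube2c*, *Birc5*, *Mcm4*, *Cdkn1a* and *Cdkn2c*, but 8.14% for *Cenpa*, 20.8% for *Tk1*, 36.3% for *Rb1*, and 38.8% for *Cdk4* and for *Top2a*. Counting these transcripts alone, *Tk1* had 0.0913 to 0.372 TPM in male WT and 0.488 to 1.69 TPM in male KO, and *Cdk1* 0.287 to 0.887 and 0.951 to 2.49 TPM (exact two-sided permutation test, p = 0.0286 each, the smallest that 4 against 4 allow). The *Tk1* groups were thus apart with either count, and those of *Cdk1*, which overlapped over all transcripts, were apart with coding transcripts only. The groups of *Ccna2*, a gene under the minimum, were also apart with coding transcripts only, in both sexes. Its coding transcripts had 0.0623 to 0.313 TPM in male WT and 0.438 to 1.14 TPM in male KO. In females they had 0.119 to 0.233 TPM in WT and 0.282 to 0.458 TPM in KO. Of the 11 members whose male groups were apart over all transcripts, *Top2a*, *Rrm1*, *Ccnb1* and *Aurkb* overlapped with coding transcripts only. Coding transcripts of *Top2a* had 0.0777 to 0.455 TPM in male WT and 0.367 to 1.25 TPM in male KO, those of *Rrm1* 4.82 to 6.16 and 5.33 to 7.85 TPM, those of *Ccnb1* 0.0499 to 0.220 and 0.00564 to 0.997 TPM, and those of *Aurkb* 0.0481 to 0.285 and 0.161 to 0.917 TPM. *Cenpa*, *Top2a* and *Tk1* then fell below the minimum in males, so the level of *Cenpa* given above is mostly that of transcripts classed as nonsense-mediated decay or retained intron.

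Markers of cell types were read in the same libraries, since BAT holds several cell types besides adipocytes. The summed TPM of 19 macrophage markers was 65.0 to 129 in male WT and 162 to 243 in male KO libraries, without overlap, and KO 1 with 162 was the lowest KO library here too. All 17 macrophage markers tested in males had a positive difference, as did 9726 of all 12179 genes, with a median of 0.98. Of these 17, 14 were higher at an unadjusted p under 0.05, beside 17.7% of all genes, and 0 passed the adjusted threshold in limma. *Trem2* and *Gpnmb*, with male WT means of 0.406 and 0.645 TPM, reached the minimum only through KO, which favours a positive difference. Their female means were all under 1 TPM, so they are not among the markers tested in females. In females the sum was 75.1 to 167 in WT and 105 to 153 in KO, and 1 of 15 markers was higher at that p, beside 11.6% of all genes. None of the 13 T and B lymphocyte markers reached 1 TPM, and 2 of 8 neutrophil markers did. The 12 fibroblast and progenitor markers summed to 193 to 313 TPM in male WT and 339 to 369 TPM in male KO. Of these 12, 8 were higher in males at an unadjusted p under 0.05, beside 17.7% of all genes, and *Mfap5* passed the adjusted threshold. For the 10 endothelial markers the sums were 242 to 488 and 375 to 447 TPM in males, and 225 to 333 and 358 to 717 TPM in females. All 10 were higher in females at an unadjusted p under 0.05, beside 11.6% of all genes. Brown adipocyte markers summed to 11200 to 22400 TPM over all libraries, and skeletal muscle markers to 17.7 to 1870 TPM in male WT, 10.1 to 4210 in male KO, 2.05 to 1280 in female WT and 6.36 to 3800 in female KO libraries. No marker of these 7 lists was at 0 in every library. The part of these cell types in the values of the cell cycle genes was not tested.

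The level of *Mki67* was compared with the markers within groups. After removal of group means, the log2 value of *Mki67* over 16 libraries correlated with the mean log2 value of the expressed macrophage markers at Pearson r = 0.688 (permutation test within groups, p = 0.00755, adjusted p = 0.0377 over 5 relations) and Spearman rho = 0.762 (permutation p = 0.00916, adjusted p = 0.0312). Under median-of-ratios scaling r was 0.653 and no longer past the threshold (permutation test, adjusted p = 0.0602, and 0.0492 for rho), and with a pseudocount of 0.1 the adjusted p of r was 0.0337. Without the 2 libraries farthest from the median of *Mki67*, male KO 1 and 4, r was 0.663. With *Top2a*, r was 0.647 (permutation p = 0.0314, adjusted p = 0.0524) and rho 0.529 (permutation p = 0.0743, adjusted p = 0.124), and 0.647 without those 2 libraries. With fibroblast and progenitor markers r was 0.515 (permutation p = 0.0206, adjusted p = 0.0515) and rho 0.656 (permutation p = 0.0125, adjusted p = 0.0312), and r was 0.674 without the 2 libraries. With endothelial markers r was 0.353 (permutation p = 0.0759, adjusted p = 0.0949) and rho 0.265 (permutation p = 0.295, adjusted p = 0.369), with r = 0.411 without them, and with brown adipocyte markers r was 0.0975 (permutation p = 0.608, adjusted p = 0.608) and rho 0.141 (permutation p = 0.593, adjusted p = 0.593), with r = 0.114 without them. No prefix of the library name held enough libraries of each group for a value within prefixes.

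**Figure D5:**
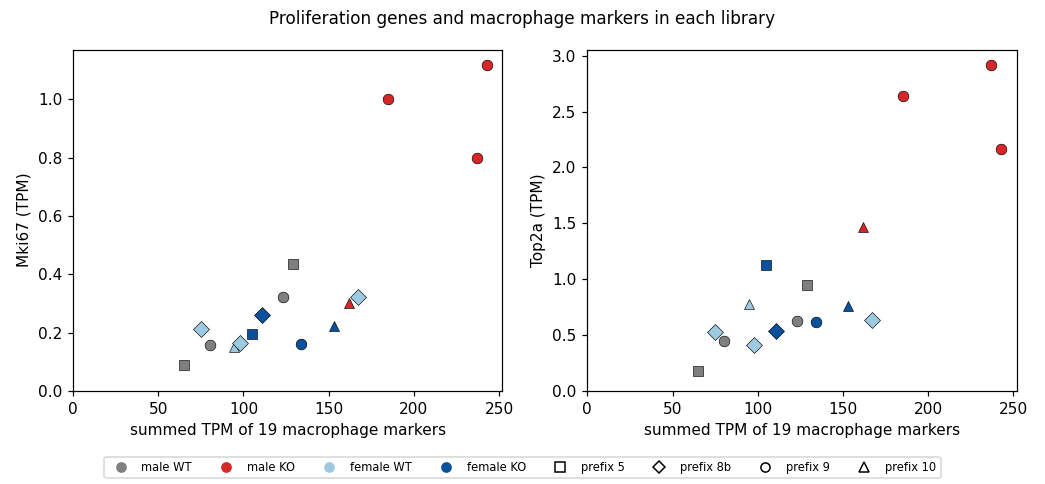
TPM of *Mki67* (left) and *Top2a* (right) against the summed TPM of 19 macrophage markers in each library, coloured by group, with the marker shape for the prefix of the library name. Male KO 2, 3 and 4 lie at 185 to 243 TPM of macrophage markers and at 0.798 to 1.12 TPM of *Mki67*, and every other library lies at 167 TPM or less and 0.434 TPM or less.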

How the data were processed

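Stranded mRNA libraries of BAT, 4 per sex and genotype, were sequenced with single-end reads. The authors quantified transcripts with kallisto (0.46.2, with GRCm39 per the submitters' processing notes) and deposited TPM values. TPM keep no read number, so depth is unknown and no counting interval is given. Of 137438 transcripts, 135107 matched GENCODE mouse release 21 when the version number was ignored, and 37 of these also matched with it. The other 2331 did not match. TPM were summed per symbol. No coordinates of the deposited transcripts are given, and promoters are from RefSeq on GRCm38.p6.

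Groups came from sample titles. The members and lists were chosen with earlier results of these data known. Values were tested as log2(TPM + 0.5) with limma 3.58.1 (lmFit, eBayes with trend, R 4.3.3) over genes with a mean of at least 1 TPM, within each sex and over 16 libraries with 4 group means, with Benjamini-Hochberg adjustment over all genes and a threshold of 0.05. Unadjusted p-values in the text are from the same fits. P-values measure the spread between these libraries. Correlations used 100000 permutations within groups; that with lymphocyte markers was planned but not computed, since none was expressed. The fit was checked on simulated data. All 35 members are named; members expressed and past an unadjusted p under 0.05, or highest of their role, are given with full values, and of the wider list up to 4 genes of smallest p per comparison.

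Each result was recomputed with a pseudocount of 1 or 0.1, without a TPM minimum or with one of 5, with median-of-ratios factors, rescaled without mitochondrial transcripts, without the variance trend, with the prefix as covariate or a replicate block, with all 16 libraries (or WT only) fitted together, and without each library in turn. Added after seeing the data were no minimum with a pseudocount of 0.1, protein-coding transcripts only, and male libraries with prefix 9 only. *Lin54* of the wider list was not found. Replicate numbers did not pair the libraries.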

Additional observations from a re-analysis of the deposited data

Results flagged for a closer look

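In 7 of 100 sets of 4 libraries examined (25 genes in 4 groups), 1 library stood apart from the other 3 by Dixon's criterion, which chance alone meets in about 1 in 20 sets. *Ccnd1* was low in male WT 1 (2.37 TPM, others 5.32 to 5.65) and in male KO 1 (7.33 TPM, others 11.7 to 12.5). *Cdkn2c* was high in male KO 1 (59.6 TPM, others 33.0 to 34.8) and in female KO 2 (89.0 TPM, others 55.1 to 59.1). *Cdkn1b* was high in male WT 4 (6.71 TPM, others 4.92 to 5.08). *Rb1* was low in female WT 4 (12.4 TPM, others 18.5 to 19.7), the library in which 1 transcript took 16.5% of the TPM. *Tyms* was low in female KO 3 (2.28 TPM, others 4.93 to 5.32).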

How the results depend on the processing

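The number of members past the adjusted threshold in males was 0, or 3 with all 16 libraries in one fit (*Ccnd1*, *Tk1* and *Top2a*) and 1 with prefix 9 only. Over all genes it was 1 of 12179, or 38 of 12212 in one fit and 9 of 12166 with prefix 9 only. For the averaged effect the members past it were 3, and 0 with no TPM minimum (also with a pseudocount of 0.1) or with the prefix as a covariate, 1 with a minimum of 5 TPM, 1 with the replicate number as a block (*Ccnd1*) and 5 with protein-coding transcripts only. Over all genes the averaged effect gave 360 of 12212, and 54 of 31798 with no minimum and 720 of 10291 with protein-coding transcripts only. The replicate block was not supported by the libraries: same-numbered WT and KO libraries of 1 sex deviated together with r between -0.116 and 0.349. Counts at an unadjusted p under 0.05 moved by over 1.5 times as follows. With a minimum of 5 TPM, which leaves fewer members, they were 4 in males (14 before), 1 in females (2), 3 for the interaction (9), 3 for the average (13) and 1 between WT sexes (3). With no minimum they were 4 in females, 14 for the interaction and 21 for the average (21 also with a pseudocount of 0.1). Protein-coding transcripts only gave 4 in females, the block 5 for the interaction, and the prefix covariate 8 for the average and 0 between WT sexes. Median-of-ratios scaling gave 7 higher and 2 lower for the average in place of 13 and 0, and the members past the adjusted threshold were then *Ccnd1*, *Ccnd3* and *Mcm6*, with *Top2a* under the minimum. With that scaling 1416 of 12197 genes were higher and 1114 lower, and 471 passed the adjusted threshold. Leaving out 1 library gave 0 to 0 adjusted calls in males, females, the interaction and the WT sexes and 0 to 7 for the average, and unadjusted counts of 11 to 14 in males, 2 to 6 in females, 4 to 9 for the interaction, 9 to 15 for the average and 0 to 5 between WT sexes. The averaged difference of *Rrm1* turned to -0.0414 with protein-coding transcripts only. The correlation of *Mki67* with *Top2a* was 0.675 and with fibroblast markers 0.592 at a pseudocount of 0.1, both then past the threshold, and with macrophage markers 0.653 under median-of-ratios scaling, then not past it, where that with brown adipocyte markers turned to -0.221. The cause was not tested. Of 119 member differences under median-of-ratios scaling, 15 changed sign, the largest of them 0.14, and under the prefix covariate 22 of 122, the largest of them the 0.57 of *Cdk1* between WT males and females. The number of reads behind values under 1 TPM is unknown, so the lowest members are the least precise.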
